A study of Mus musculus with 30 samples.

Results

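A set of 9 genes for cell surface receptors coupled to G proteins were followed in mouse microglia, the resident macrophages of the brain: Hcar2, Gpr153, Gpr84, Gpr34, Gpr183, Gpr65, Gpr160, Gpr35 and Sucnr1. These 9 genes, among 47643 in the table of expression values, were listed by name as receptors that sense metabolites or lack an established ligand, and Hcar2 and Gpr153 were chosen on their FPKM, which is higher in the groups that carry Cre. Values against WT are therefore given for these 2 genes as a description without a test. The other 7 were not chosen for a difference, although all 9 were listed with earlier results of these data known. The data hold 30 libraries, 1 per mouse, of microglia from mice at 3 months of age. Homo mice (Bin1 flox/flox::Cx3Cr1-Cre+, 5 males and 5 females) carry 2 floxed copies of Bin1, and Het mice (Bin1 wt/flox::Cx3Cr1-Cre+, 6 males and 5 females) carry 1. WT mice (5 males and 4 females) were Bin1 wt/flox without Cre according to a figure legend of the paper, which elsewhere names them only Bin1 wt. Cre is expressed from the Cx3cr1 locus, which is active in microglia and in other myeloid cells, so that Cre, the change at Cx3cr1 and the loss of 1 Bin1 copy coincide and cannot be told apart. The methods describe CD11b+ CD45med cells sorted by FACS, whereas the GEO protocol field gives microglia grown in culture from newborn mice and exposed to Tau, ATP and LPS. The methods were followed, and which holds was not tested.

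Receptors of this kind pass a signal across the membrane to heterotrimeric G proteins, which alter cyclic AMP, calcium and cell movement. Many of them detect small molecules made by metabolism, and microglia use them to sense lipids, nucleotides and energy state. Hcar2 is the receptor for the ketone body beta-hydroxybutyrate and for niacin and couples to inhibitory G proteins. Gpr84 responds to medium-chain fatty acids, Gpr34 to lysophosphatidylserine, Gpr183 to oxysterols, Gpr65 to extracellular protons and Sucnr1 to succinate. Gpr35 has been linked to kynurenic acid among other candidates, while Gpr153 and Gpr160 are orphans or have no settled ligand.

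Expression was given as FPKM, fragments scaled to transcript length and to the mapped fragments of the library, which allows levels of different genes to be compared. In bulk RNA of sorted cells, a lower share of cells with a transcript and less of it in each cell cannot be told apart. Bin1, the gene targeted, was at 230 to 290 FPKM in the WT libraries and at 39.5 to 55.6 in the Homo libraries. Among the Het libraries, 9 lay between 117 and 164, whereas the library labelled Het-F-0206 was at 42.7 and the library labelled Het-M-0199 at 51.8. The former also had Cx3cr1 at 13.9 FPKM, compared with 610 to 1243 in the other Cre-positive libraries, so comparisons of Het mice that move when these libraries are left out are also given without them. All 10 microglia markers examined were detected, with a summed level of 18381 to 26923 FPKM in every library. Depth relative to the median library, read from the steps between values of low genes, was 0.669 to 1.41. Mouse numbers fell into an early and a late range. The early range held 3 of 5 male Homo, 2 of 6 male Het and 1 of 4 female WT mice, and 0 of 5 male WT mice.

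The 9 receptors spanned a wide range of levels. Gpr34 had the highest mean FPKM over the 30 libraries (2281, range 1565 to 3663), above 99.9% of the genes tested. It was followed by Gpr84 (140.5, range 97.02 to 212), Gpr183 (123, range 102 to 143) and Gpr160 (48.7, range 41.8 to 60.1). Next came Hcar2 (11.1, range 2.19 to 27.8), Gpr35 (10.8, range 7.85 to 15.2) and Gpr65 (5.27, range 3.38 to 11.6). Gpr153 was low in every library (0.685, range 0.110 to 1.45), and Sucnr1 was listed at 0 FPKM in all 30 libraries. The ranges of Gpr84 and Gpr183 over the libraries overlapped, as did those of Hcar2, Gpr35 and Gpr65. Within a library, Gpr35 lay above Gpr65 in all 30, whereas Gpr84 and Gpr183 changed order between libraries, as did Hcar2 with Gpr35 and with Gpr65. The order of Hcar2 and Gpr35 differed between WT and Homo mice in males. In male WT mice Hcar2 (2.19 to 5.28 FPKM) lay below every value of Gpr35 (7.85 to 10.3). In male Homo mice Hcar2 (11.0 to 22.3) lay above every value of Gpr35 (8.72 to 10.8). This switch in males goes with the difference from WT for which Hcar2 was chosen. In female WT mice Hcar2 also lay below every value of Gpr35. In female Homo, female Het and male Het mice the order changed between libraries. For example, Hcar2 was at 7.75 and Gpr35 at 12.6 in Homo-F-0234, but at 14.1 and 9.11 in Homo-F-0201. After a filter on low values (mean FPKM of at least 0.1), 8 of the 9 receptors were tested, that is all but Sucnr1.

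Hcar2 (ENSMUSG00000045502) lies on the minus strand at chr5:123863570-123865499 of GRCm38. In male WT mice its FPKM was 5.28, 2.19, 2.20, 4.27 and 3.57. In male Homo mice it was 22.3, 19.2, 22.2, 11.0 and 15.7. The male Het libraries ran from 11.1 to 18.4 with a median of 15.0. Both Cre-positive male groups thus lay wholly above male WT, with means ± SD of 18.1 ± 4.80 (n = 5) for Homo, 14.8 ± 2.73 (n = 6) for Het and 3.50 ± 1.34 (n = 5) for WT males. Of all genes, 2.56% were higher without overlap in male Homo and 0.515% in male Het mice. The ratio of means to WT was 5.16 for Homo and 4.22 for Het males.

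In female WT mice Hcar2 was at 5.85, 2.74, 3.39 and 4.07 FPKM. In female Homo mice it was at 11.6, 14.1, 11.1, 7.75 and 7.85. In female Het mice it was at 10.3, 27.8, 9.13, 15.0 and 6.14, the second of these being the library labelled Het-F-0206. Both female Cre-positive groups lay above all WT libraries, but the lowest Het value, 6.14, was close to the highest WT value, 5.85. The means ± SD were 10.5 ± 2.70 (n = 5) for Homo, 13.7 ± 8.50 (n = 5) for Het and 4.01 ± 1.34 (n = 4) for WT females, with ratios to WT of 2.61 and 3.41. Leaving this library out, the mean of the female Het group became 10.2 ± 3.70 (SD, n = 4). Of all genes, 1.65% were higher without overlap in female Homo and 1.58% in female Het mice.

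Gpr153 (ENSMUSG00000042804), an orphan receptor, lies on the plus strand at chr4:152274232-152285337 of GRCm38. In male WT mice its FPKM was 0.110, 0.125, 0.139, 0.182 and 0.237. In male Homo mice it was 1.37, 0.931, 0.379, 0.375 and 0.810, and in male Het mice it ran from 0.480 to 1.12 with a median of 0.754. The lowest Cre-positive male library was above the highest male WT library. Ratios of means to WT were 4.88 for Homo (0.774 ± 0.419, SD, n = 5) and 4.74 for Het males (0.752 ± 0.269, SD, n = 6). In females Gpr153 was at 0.240, 0.384, 0.251 and 0.363 in WT mice. It was at 1.21, 0.798, 0.830, 0.713 and 0.801 in Homo mice. It was at 0.812, 1.34, 1.02, 1.45 and 1.18 in Het mice, the second again being the library labelled Het-F-0206. Here too the groups did not overlap, and the ratios of means to WT were 2.81 for Homo and 3.75 for Het females.

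At such low levels the log2 difference depends on the pseudocount, the constant added before the logarithm. For male Homo against WT mice, Gpr153 differed by 1.57 on the log2(FPKM + 0.1) scale, by 0.55 with a pseudocount of 1 and by 2.01 with one of 0.01. Of the 16897 genes tested, 15 (0.0888%) were higher without overlap in each of the 4 Cre-positive groups than in WT mice of the same sex. Hcar2 and Gpr153 are among these 15 by the way they were chosen. The Homo and Het groups of each sex share the same WT libraries.

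**Figure D1:**
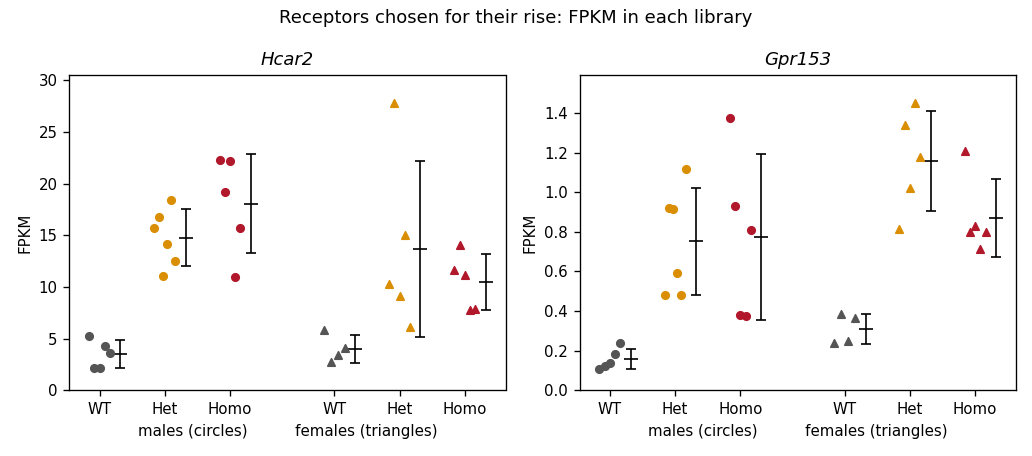
FPKM of Hcar2 (left) and Gpr153 (right) in each library, by genotype, with males as circles and females as triangles; black bars are the mean ± SD of each group. All Cre-positive libraries lie above all WT libraries of their sex, and the highest Hcar2 value, 27.8, is the library labelled Het-F-0206.

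RefSeq promoter sequences, each a window of 300 bases around the annotated start and mostly before it, were at hand for 7 of the 9 receptors on GRCm38.p6. That of Gpr153 is shown because this receptor differed between WT and Cre-positive mice, with capitals for each match of the GC box (GGGCGG on either strand, a motif bound by Sp1). The window lies at chr4:152273862-152274161 on the plus strand.
Gpr153 promoter: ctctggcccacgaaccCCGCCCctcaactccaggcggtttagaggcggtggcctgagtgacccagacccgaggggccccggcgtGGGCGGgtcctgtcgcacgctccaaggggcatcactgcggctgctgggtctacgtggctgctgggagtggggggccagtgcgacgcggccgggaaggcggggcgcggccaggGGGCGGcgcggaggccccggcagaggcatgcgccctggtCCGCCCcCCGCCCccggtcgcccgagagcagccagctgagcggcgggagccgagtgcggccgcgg
Its GC content was 77.3%, higher than in 97.8% of the promoters, and it held 5 GC boxes, a motif found in 35.7% of 32851 promoters of the same length. Neither it nor a further Gpr153 window (GC content 81.3%, 2 GC boxes) held the letters searched for PU.1 (GAGGAAGT), AP-1 (TGANTCA) or C/EBP (TTGCNNAA) on either strand. These were present in 3.20%, 7.81% and 10.8% of all promoters. Hcar2 and Gpr34 had no entry.

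Both chosen receptors have a close paralogue, so shared sequence was looked for in annotated transcripts. The placement of reads with mismatches was not tested. Hcar1, the lactate receptor, lies close to Hcar2 at chr5:123876736-123880020 on the same strand. It was at 0 to 0.167 FPKM in all libraries and was too low to be tested. The coding sequences of Hcar2 (1080 bases) and Hcar1 (1053 bases) were identical at 65.5% of 1043 aligned bases, and the longest identical run was 18 bases, shorter than the reads. The first bases from the start codon, taken from GENCODE M21 transcripts on GRCm38, are shown to make this plain. Capitals mark bases that differ from the other gene or face a gap in the alignment.
Hcar2 coding bases 1 to 150: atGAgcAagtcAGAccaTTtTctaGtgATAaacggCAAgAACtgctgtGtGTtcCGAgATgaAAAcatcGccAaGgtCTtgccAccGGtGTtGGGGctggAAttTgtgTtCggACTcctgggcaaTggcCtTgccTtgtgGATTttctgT
Hcar1 coding bases 1 to 147: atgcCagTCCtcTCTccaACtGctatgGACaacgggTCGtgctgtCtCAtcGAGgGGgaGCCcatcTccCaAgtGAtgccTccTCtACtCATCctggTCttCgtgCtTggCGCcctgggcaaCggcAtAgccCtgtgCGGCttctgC
Transcripts of Hcar2 held no run of 50 bases that occurs in another gene, and neither did those of Gpr153. Gpr162, the paralogue of Gpr153 (66.4% identical, longest identical run of 21 bases), had levels of its own. Its mean ± SD was 1.30 ± 0.238 FPKM in WT, 2.36 ± 0.208 in Homo and 2.72 ± 0.638 in Het females (n = 4, 5 and 5), without overlap between WT and either Cre-positive group. By limma the log2 difference was 0.82 in Homo (SE 0.24, adjusted p = 0.563) and 0.99 in Het females (SE 0.24, adjusted p = 0.114). In males, where the groups overlapped, it was 0.67 in Homo (adjusted p = 0.0877) and 0.71 in Het mice (adjusted p = 0.185). None of these passed the threshold.

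Whether a second lost copy of Bin1 went with a further change was asked by comparing Homo with Het mice, a contrast that played no part in choosing the receptors. Hcar2 differed by 0.25 on the log2 scale in males (SE 0.27, 95% interval -0.30 to 0.81, adjusted p = 0.998) and by -0.22 in females (SE 0.28, 95% interval -0.80 to 0.35, adjusted p = 1). Gpr153 differed by -0.05 in males (SE 0.29, 95% interval -0.64 to 0.53, adjusted p = 0.998) and by -0.37 in females (SE 0.30, 95% interval -0.98 to 0.24, adjusted p = 1). Without the libraries labelled Het-F-0206 and Het-M-0199, Hcar2 differed by 0.26 in males (SE 0.24) and by 0.08 in females (SE 0.26), so that the sign in females was set by the former library, and Gpr153 by -0.09 (SE 0.31) and -0.32 (SE 0.33), all with an adjusted p of 1. With late numbered mice only, the male Hcar2 difference was -0.06 (SE 0.40). The groups overlapped in all of these comparisons when no library was left out, while the intervals leave room for differences of about the size of 1 log2 unit in Gpr153 in females. Of the 8 receptors tested, 0 passed the thresholds (adjusted p below 0.05 and fold change above 1.5) in males or females. At an unadjusted p below 0.05 there were 0 in males and 1 in females, Gpr35, at -0.26 (SE 0.12, adjusted p = 1), and at -0.23 (SE 0.13, adjusted p = 1) without the pair of libraries. Of all genes tested, 0% passed in males and 0.0118% in females, and 3.85% and 2.06% had an unadjusted p below 0.05. Bin1 itself differed between Homo and Het females by -1.55 (SE 0.26, adjusted p = 0.0145) and between Homo and Het males by -1.21 (SE 0.25, adjusted p = 0.624). Without the same pair of libraries Bin1 differed by -1.93 (SE 0.11, adjusted p = 2.487e-12) in females and by -1.42 (SE 0.10, adjusted p = 1.058e-09) in males, while 0 receptors passed in either sex.

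**Figure D2:**
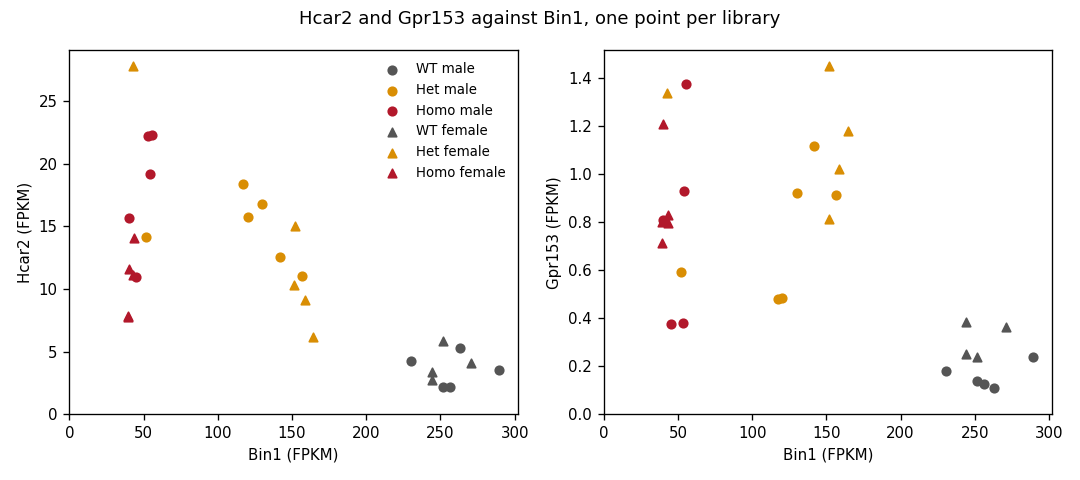
FPKM of Hcar2 (left) and Gpr153 (right) against the FPKM of Bin1, 1 point per library, males as circles and females as triangles, colours by genotype. WT libraries have a Bin1 FPKM of 230 or more and lie below all Cre-positive libraries of the same sex for both receptors (between the sexes, the highest female WT value of Gpr153, 0.384, is above 2 male Homo values, 0.379 and 0.375), and the 2 Het libraries with a Bin1 FPKM of 42.7 and 51.8 sit among the Homo libraries on the Bin1 axis.

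Within the Het groups, Hcar2 was mostly higher in libraries with less Bin1, a pattern noticed after the values were seen and not tested. The 4 female Het libraries with Bin1 at 152 to 164 FPKM had Hcar2 at 6.14 to 15.0, the lowest of these in the library with the highest Bin1. The library labelled Het-F-0206 had the highest Hcar2 of all 30 libraries. Among male Het mice, the library with the highest Bin1 (157) had the lowest Hcar2 (11.1), and the highest Hcar2 (18.4) was found at a Bin1 of 117, whereas the library labelled Het-M-0199 (Bin1 51.8) was at 14.2. Over all 30 libraries, deviations of Hcar2 and Bin1 from their group means had an r of -0.472, and of -0.177 without the library labelled Het-F-0206. For Hcar2 and Cx3cr1 r was -0.627, and -0.426 without that library. Bin1 and Cx3cr1 themselves deviated together (r = 0.761, and 0.413 without it). Which of these genes the Hcar2 values go with was not tested. Gpr153 showed no such order, since its lowest male Het values, 0.480 and 0.483, were in the libraries with Bin1 at 117 and 120.

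The sexes were compared because the study asked about sex differences after the loss of Bin1. Between male and female WT mice, Hcar2 differed by -0.23 (SE 0.30, 95% interval -0.84 to 0.38, adjusted p = 1). Gpr153 was lower in all male WT libraries (0.110 to 0.237 FPKM) than in all female ones (0.240 to 0.384), with a log2 difference of -0.68 (SE 0.32, adjusted p = 1) that did not pass the threshold. Of all genes, 0.438% were lower in males without overlap, 0.0473% passed the thresholds and 2.91% had an unadjusted p below 0.05. Of the 8 receptors, 0 passed, and Gpr153 alone had an unadjusted p below 0.05.

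The difference between Homo and WT mice was larger in males than in females by 0.91 for Hcar2 (interaction, SE 0.41). The interaction is built from the differences from WT for which Hcar2 and Gpr153 were chosen, so it is given for them without a test. For Gpr34 the difference was larger in males by 0.55 (SE 0.23, 95% interval 0.08 to 1.03, adjusted p = 0.525), which did not pass the threshold. With only late numbered mice the Hcar2 interaction was 0.40 (SE 0.52). For Gpr153 the interaction was 0.33 (SE 0.43). In Het mice it was 0.44 for Hcar2 (SE 0.40) and 0.01 for Gpr153 (SE 0.43). The Hcar2 value in Het mice turned on single libraries, being 0.74 without the library labelled Het-F-0206 (SE 0.35), 0.73 without that and Het-M-0199 (SE 0.37) and 0.20 without Het-F-0257. For Gpr153 it was 0.10 without Het-F-0206 and Het-M-0199 (SE 0.46). By limma, 0 of the 6 tested receptors not chosen for a difference and 0% of all genes passed in either interaction. At an unadjusted p below 0.05 there was 1 of these 6, Gpr34, and 9.29% of all genes in the Homo interaction. In the Het interaction there were 0 of the 6 and 4.53% of all genes.

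Early and late numbered males were compared because the range is unevenly spread over the male groups. For Hcar2, the 3 early male Homo libraries were at 19.2 to 22.3 FPKM and the 2 late ones at 11.0 and 15.7. The early male Het libraries were at 15.8 and 16.8 and the 4 late ones at 11.1 to 18.4, which takes in both. In a fit that also held genotype, Hcar2 differed between early and late Cre-positive males by 0.30 (SE 0.14, adjusted p = 0.146), and by 0.16 without the library labelled Homo-M-0189. Gpr84 differed by -0.48 (SE 0.17, adjusted p = 0.0723), and Gpr183 differed by -0.33 (SE 0.12, adjusted p = 0.0743). None of the 8 receptors passed in this contrast, in which 7.42% of all genes did. At an unadjusted p below 0.05 there were 3 receptors and 33.8% of all genes. Markers of other cells passed here too. Higher in early numbered males were Gja1 (1.94) and Aldoc (2.00) of 5 astrocyte markers, Mbp (1.31) of 5 oligodendrocyte markers, S100a8 (4.82) of 8 neutrophil markers and Pf4 (0.89) of 7 border macrophage markers, while Pecam1 (-0.61) of 3 endothelial and Olfml3 (-0.62) of 10 microglia markers were lower. Their part in the receptor values was not tested. The male WT mice were all late numbered. Late male Homo and Het libraries had more Hcar2 than any male WT library, which follows from the separation for which Hcar2 was chosen and is no test of the number range. The 1 early numbered WT mouse, a female, had the highest Hcar2 (5.85) and Gpr34 (2795) of the 4 female WT libraries.

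The 7 receptors that were not chosen for a difference, of which 6 were tested, were then compared with WT by limma, fitted to the 6 groups at once. Of these 6, 0 passed the thresholds in male Homo mice, where 1.81% of all genes passed, and 0 in male Het mice, where 0.154% passed. In females 0 passed in Homo mice and 0 in Het mice, where 0.071% and 0.13% of all genes passed. At an unadjusted p below 0.05 there was 1 in male Homo (Gpr34), 0 in male Het, 1 in female Homo (Gpr84) and 2 in female Het mice (Gpr84 and Gpr35). All genes reached that level in 22.5%, 14.2%, 3.49% and 3.95% of cases. The median log2 difference of the 6 was 0.02, 0.13, 0.12 and 0.23 in these comparisons, beside a median over all genes of 0.03 in male Homo and 0.01 in male Het mice and within 0.001 of 0 in females.

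**Figure D3:**
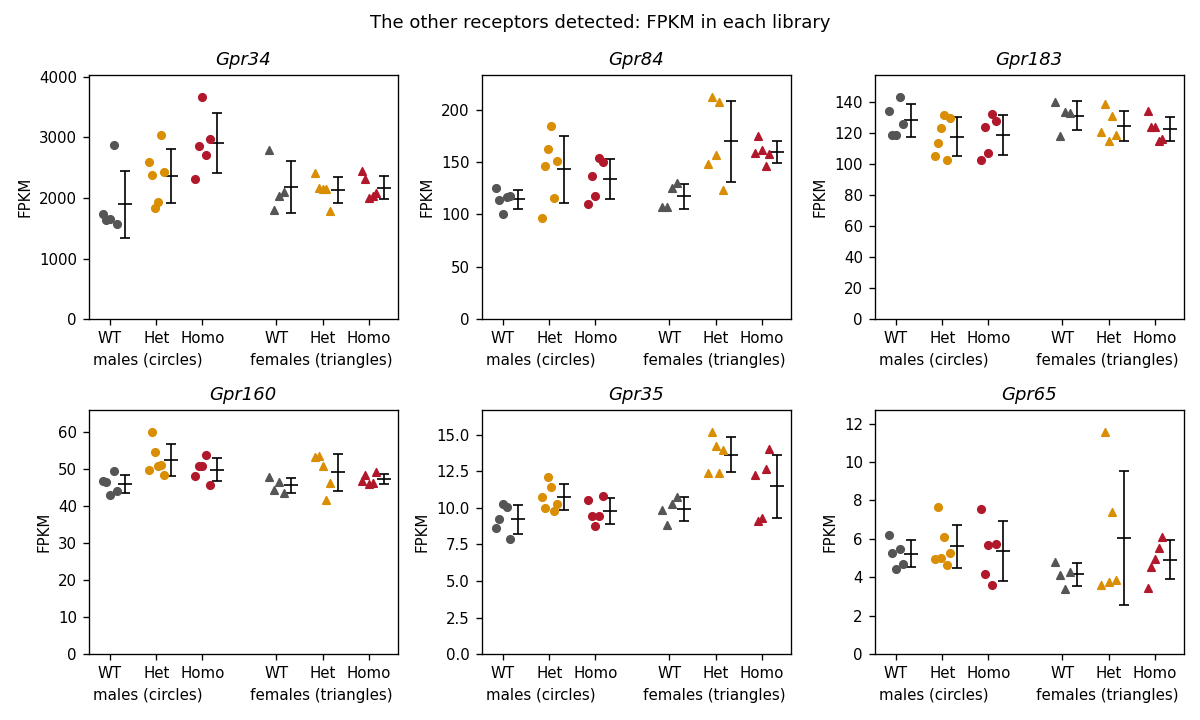
FPKM of Gpr34, Gpr84, Gpr183, Gpr160, Gpr35 and Gpr65 in each library by genotype, males as circles and females as triangles; black bars are the mean ± SD of each group. Gpr34 is highest in male Homo mice with 1 high male WT library at 2876, Gpr84 lies above all WT libraries in Homo females and Gpr35 in Het females, with no comparison past the threshold, and Gpr65 reaches 11.6 in the library labelled Het-F-0206.

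Gpr34 (ENSMUSG00000040229), at chrX:13632089-13640858 on the plus strand, is a lysophosphatidylserine receptor typical of microglia. In male WT mice it was at 1733, 1636, 1662, 2876 and 1565 FPKM. In male Homo mice it was at 2318, 2853, 3663, 2701 and 2969. Of the 5 WT libraries, 4 lay below every Homo library, whereas the library labelled WT-M-0202 lay within the Homo range. The male Het libraries ran from 1830 to 3031 with a median of 2405. Against WT, Gpr34 differed by 0.56 in male Homo (SE 0.16, adjusted p = 0.0537) and by 0.27 in male Het mice (SE 0.15, adjusted p = 0.418). The former passed the thresholds without the library labelled WT-M-0202 (0.71, SE 0.15, adjusted p = 0.00851), without scaling between libraries (0.64, adjusted p = 0.0332), by quantile normalization (0.62, adjusted p = 0.0381) and with array weights (0.61, adjusted p = 0.0137). With a filter at a mean FPKM of 1 its adjusted p was 0.0298, but the fold change of 1.47 was below the threshold. It did not pass among late numbered mice only (0.62, adjusted p = 0.326) or in a fit of the compared groups alone (0.56, adjusted p = 0.210). In females the mean ± SD of Gpr34 was 2184 ± 428 in WT, 2134 ± 219 in Het and 2172 ± 195 in Homo mice (n = 4, 5 and 5), with a difference of 0.00 for Homo (95% interval -0.34 to 0.35) and -0.03 for Het. Gpr34 lies within the span of Cask, which is on the other strand and had a mean of 26.9 FPKM, and their exons do not overlap.

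Gpr84 (ENSMUSG00000063234), the receptor for medium-chain fatty acids that is known to rise in activated macrophages, lies at chr15:103308235-103310612 on the minus strand. In female WT mice it was at 107.6, 106.7, 125 and 130 FPKM. In female Homo mice it was at 159, 175, 161, 146 and 157, all above the WT libraries, a separation seen in 1.65% of all genes. In female Het mice it was at 149, 212, 156, 207.5 and 124, of which 1 fell within the WT range. The log2 difference was 0.44 in Homo (SE 0.18, adjusted p = 1) and 0.50 in Het females (SE 0.18, adjusted p = 0.751), neither past the threshold, and 0.42 (adjusted p = 1) in Het females without the library labelled Het-F-0206. In males the mean ± SD of Gpr84 was 115 ± 9.02 in WT, 143 ± 31.6 in Het and 134 ± 19.2 in Homo mice (n = 5, 6 and 5), with differences of 0.21 (SE 0.16, adjusted p = 0.536) for Het and 0.13 (SE 0.17, adjusted p = 0.681) for Homo. Transcripts of Gpr84 share 37.8% of their runs of 50 bases with an antisense gene, Gm49482, which has no row in the table. The methods name kits that do not mark strand, the labels name these and a stranded kit as well, and whether counting used strand is not given in the sources used here, so reads of the pair may not have been told apart.

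Gpr183 (ENSMUSG00000051212), the oxysterol receptor also known as EBI2, lies at chr14:121952551-121965195 on the minus strand and varied little. Its mean ± SD was 128 ± 10.7 FPKM in WT, 118 ± 12.4 in Het and 119 ± 12.98 in Homo males (n = 5, 6 and 5). For WT, Het and Homo females the values were 131 ± 9.33, 125 ± 9.65 and 122.4 ± 7.69 (n = 4, 5 and 5). The differences from WT were -0.19 in male Homo (SE 0.11, adjusted p = 0.295), -0.20 in male Het (SE 0.11, adjusted p = 0.385), -0.10 in female Homo and -0.08 in female Het mice (both adjusted p = 1). In males the early numbered Cre-positive libraries were lower (105 to 114 in Het, 103 to 124 in Homo) than most late ones (102 to 131 in Het, 128 and 132 in Homo), and with late numbered mice only the male Homo difference was 0.02 (SE 0.12, adjusted p = 0.988). Gpr183 lies within the span of Ubac2 (mean 33.6 FPKM) on the other strand, without exon overlap.

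Within groups, Gpr84 and Gpr183 went up and down together. The deviations of their log2 values from the group means had a Pearson r of 0.856 over the 30 libraries, and of 0.853 without the library labelled Het-F-0206. This was the highest r of any pair among the 8 receptors tested. Of the other tested genes, 14 had a higher r with Gpr84, and 2177 had one above its r of 0.508 with Gpr160. On unscaled FPKM r was 0.759, and both genes deviated to the same side in 26 of 30 libraries. This is a description, since values of 1 library share its depth, scaling and cell preparation, and the libraries differ in mouse number range. Hcar2 and Gpr153, by contrast, had an r of 0.113 for deviations within groups, while r was 0.711 over their levels, which include the difference between genotypes that they were chosen for. Hcar2 deviated with Gpr65 (r = 0.569, and 0.397 without the library labelled Het-F-0206) and against Cx3cr1 (r = -0.627, and -0.426 without that library).

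**Figure D4:**
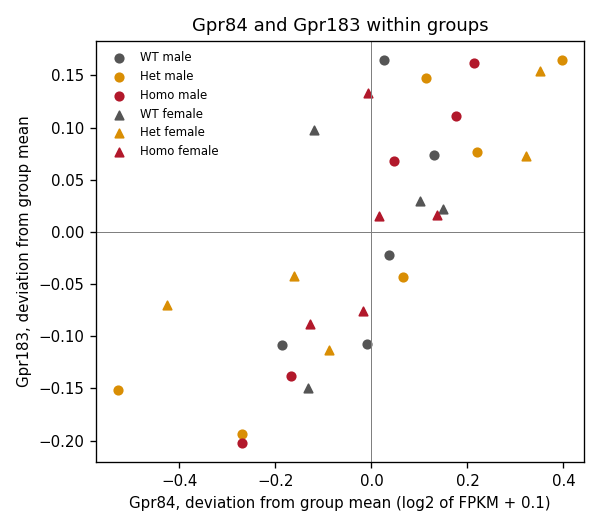
Deviation of Gpr84 (x axis) and Gpr183 (y axis) from the mean of their group, in log2 of FPKM + 0.1 as deposited, 1 point per library, males as circles and females as triangles. The points run from the lower left to the upper right, with both deviations of the same sign in 26 of 30 libraries.

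The promoter sequences of this pair are shown because the genes varied together. That of Gpr84 lies at chr15:103310389-103310688 and that of Gpr183 at chr14:121965144-121965443, both on the minus strand of GRCm38.p6. Capitals mark the 1 match found among the motifs searched, a C/EBP sequence (TTGCNNAA) in Gpr183.
Gpr84 promoter: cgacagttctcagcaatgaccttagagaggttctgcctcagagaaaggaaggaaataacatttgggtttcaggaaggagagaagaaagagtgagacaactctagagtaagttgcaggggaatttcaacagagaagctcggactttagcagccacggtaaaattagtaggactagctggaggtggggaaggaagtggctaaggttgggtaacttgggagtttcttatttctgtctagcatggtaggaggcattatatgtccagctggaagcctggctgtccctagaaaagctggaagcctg
Gpr183 promoter: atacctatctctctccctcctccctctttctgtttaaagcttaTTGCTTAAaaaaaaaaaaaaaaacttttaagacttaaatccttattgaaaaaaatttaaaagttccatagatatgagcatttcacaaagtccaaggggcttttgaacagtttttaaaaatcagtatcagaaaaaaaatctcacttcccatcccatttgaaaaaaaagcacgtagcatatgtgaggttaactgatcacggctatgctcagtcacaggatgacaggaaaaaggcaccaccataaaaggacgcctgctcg
They differ in base composition, with a GC content of 47.0% in Gpr84 and 35.3% in Gpr183 beside a median of 52.7% over all promoters. None of the 4 motifs searched was found in both.

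Gpr35 (ENSMUSG00000026271), at chr1:92950865-92986391 on the plus strand, was at 9.85, 8.79, 10.3 and 10.8 FPKM in female WT mice. In female Het mice it was at 12.4, 15.2, 14.2, 12.4 and 13.9, above all WT libraries, a separation seen in 1.58% of all genes. In female Homo mice it was at 12.2, 9.11, 9.28, 12.6 and 14.02, overlapping both. The log2 difference was 0.45 in Het (SE 0.13, adjusted p = 0.359) and 0.19 in Homo females (SE 0.13, adjusted p = 1), so neither passed the threshold, and it was 0.41 in Het females without the library labelled Het-F-0206 (adjusted p = 0.854). In males the mean ± SD of Gpr35 was 9.21 ± 1.01 in WT, 10.7 ± 0.891 in Het and 9.79 ± 0.869 in Homo mice (n = 5, 6 and 5). By limma the log2 differences were 0.15 for Het (SE 0.12, adjusted p = 0.569) and 0.01 for Homo males (SE 0.12, adjusted p = 0.980).

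Gpr65 and Gpr160 did not pass the threshold in any comparison. Gpr65 (ENSMUSG00000021886, chr12:98268635-98276644, plus strand), the proton sensor, had a mean ± SD of 5.22 ± 0.706 FPKM in WT, 5.61 ± 1.12 in Het and 5.35 ± 1.55 in Homo males (n = 5, 6 and 5). In female Het mice it was at 3.58, 11.6, 3.75, 7.40 and 3.87, so that 1 library, labelled Het-F-0206, set the mean of 6.04 ± 3.48 (SD, n = 5), which was 4.65 ± 1.84 (SD, n = 4) without it. The means of female WT and Homo mice were 4.15 ± 0.593 (SD, n = 4) and 4.92 ± 1.02 (SD, n = 5). An antisense gene, Gm47566, shares 18.1% of the runs of 50 bases in Gpr65 transcripts and has no row in the table. Gpr160 (ENSMUSG00000037661, chr3:30855950-30897192, plus strand) was the steadiest of the expressed receptors. Its differences from WT had 95% intervals of -0.12 to 0.19 in male Homo, -0.04 to 0.27 in male Het, -0.12 to 0.22 in female Homo and -0.07 to 0.27 in female Het mice. Sucnr1 (ENSMUSG00000027762, chr3:60081869-60087566, plus strand), the succinate receptor, has no value above 0 in these libraries, and no fold is given.

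**Figure D5:**
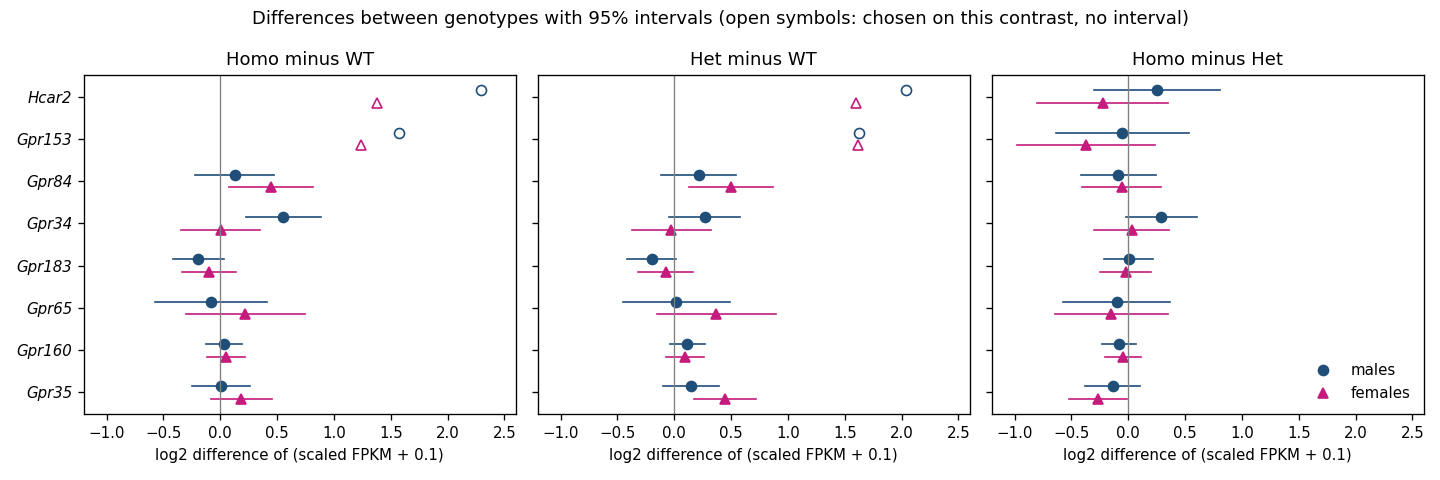
Log2 differences of the 8 receptors tested for Homo minus WT, Het minus WT and Homo minus Het, males as circles and females as triangles, with 95% intervals from limma. Open symbols without intervals are Hcar2 and Gpr153 against WT, for which they were chosen; in Homo minus Het all intervals but that of Gpr35 in females (-0.52 to -0.01) include 0.

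Related genes were counted on lists that were chosen with earlier results of these data known. Among 24 other receptors for metabolites and lipids, such as the free fatty acid receptors and lysophosphatidic acid receptors, 13 were tested and 0 passed in each of the 4 comparisons with WT by limma. Unadjusted p was below 0.05 for 4 in male Homo, 3 in male Het, 1 in female Homo and 1 in female Het mice, and their median log2 differences were -0.04, -0.03, -0.05 and 0.02. Among 66 other genes with numbered Gpr symbols, 22 were tested and 0 passed in any of the 4, with 3 at an unadjusted p below 0.05 in each.

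Of 18 purinergic, complement, chemokine and related receptors of microglia, 16 were tested. In male Homo mice 2 rose, and with all libraries kept 0 passed in the other comparisons. Adora1, an inhibitory adenosine receptor, was higher by 1.00 (SE 0.28, adjusted p = 0.0487) and Ccr1, a chemokine receptor, by 1.08 (SE 0.28, adjusted p = 0.0333). In male Het mice the values were 1.06 for Adora1 (adjusted p = 0.0983) and 0.99 for Ccr1 (adjusted p = 0.120). Both passed in male Het mice without the libraries labelled Het-F-0206 and Het-M-0199, at 1.24 (adjusted p = 0.0287) and 1.07 (adjusted p = 0.0107). In female Het mice they were at 1.32 (adjusted p = 0.0702) and 0.48 (adjusted p = 1), and without that pair at 1.19 (adjusted p = 0.178) and 0.11. In female Homo mice they were at 0.95 (adjusted p = 0.684) and 0.24, neither past the threshold. With late numbered mice only, the male Homo values were 0.91 (adjusted p = 0.574) and 0.94 (adjusted p = 0.572), so neither passed. The list had a median of -0.13 in male Homo mice, where 1.17% of all genes passed as higher. Unadjusted p was below 0.05 for 5, 5, 1 and 2 of its genes in male Homo, male Het, female Homo and female Het mice.

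Of the genes that carry the signal inward (G protein subunits, arrestins, receptor kinases and regulators), 30 were tested and 0 passed in any of the 4 comparisons, with 8, 6, 0 and 0 at an unadjusted p below 0.05. Of 22 enzymes that make or break down ligands of these receptors in the table, such as ketone body and oxysterol enzymes, 16 were tested and 0 passed, with 5, 1, 3 and 2 at an unadjusted p below 0.05. Of 16 immediate early and inflammatory genes, 14 were tested and 2 rose, both in male Homo mice. These were Tnf, the cytokine (1.95, SE 0.37, adjusted p = 0.00657), and Nfkbiz, a nuclear regulator of NF-kB (1.13, SE 0.23, adjusted p = 0.0111). In male Het mice they were at 1.19 (adjusted p = 0.167) and 0.85 (adjusted p = 0.109), in female Het mice at 0.62 and 0.29 and in female Homo mice at 0.04 and 0.17 (all adjusted p = 1 in females). The male Homo group holds 3 early numbered mice of 5 and male WT 0 of 5, and Nfkbiz also passed as higher in early than in late Cre-positive males (0.70, SE 0.15, adjusted p = 0.0243), whereas Tnf did not (0.34, adjusted p = 0.455). With late numbered mice only, the male Homo values were 1.74 for Tnf (adjusted p = 0.232) and 0.70 for Nfkbiz (adjusted p = 0.426), so neither passed. In female Homo mice, male Het mice and female Het mice 0 of these genes passed, with 1, 5 and 3 at an unadjusted p below 0.05.

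Some markers of other cells moved with genotype too. Of 8 neutrophil markers tested, 4 fell in male Homo mice (Ngp, Lcn2, S100a9 and Ltf), where 0.645% of all genes passed as lower, and the summed level of the 9 markers in the table was 44.1 to 349 FPKM in male WT, 0.118 to 190 in male Het and 0.113 to 80.9 in male Homo mice. In females the sum was 6.86 to 159 in WT, 0.041 to 88.4 in Het and 0.219 to 72.0 in Homo mice, and 0 markers passed. Of the 9 neutrophil markers, 2 (Retnlg and Mmp8) were at 0 in all male Homo libraries. S100a8 reached 43.5 and S100a9 24.6 FPKM in that group, with a median of 0 for each. The sum of 5 choroid plexus markers was 0.395 to 440 in male WT and 0.646 to 30.6 in male Homo mice, and that of 7 border macrophage markers 17.5 to 47.0 and 12.4 to 29.7. In both lists 0 markers passed in any of the 4 comparisons with WT. At an unadjusted p below 0.05 there were 3 choroid plexus and 5 border macrophage markers in male Homo mice, beside 22.5% of all genes. Of 6 monocyte markers, 4 were tested and 1, Chil3, fell in male Homo mice, and the sum was 5.90 to 18.5 in male WT and 3.92 to 9.60 in male Homo mice. The median log2 difference of each of these 4 lists was below 0 in all 4 comparisons with WT. Of the markers tested for astrocytes (5), neurons (5), oligodendrocytes (5) and endothelium (3), 0 passed in any of the 4, with 2, 8, 1 and 1 in all at an unadjusted p below 0.05 in male Homo, male Het, female Homo and female Het mice. The list medians in male Homo and male Het mice were 0.52 and 0.75 for astrocytes, 0.29 and 0.41 for neurons, 0.49 and 0.79 for oligodendrocytes, and -0.07 and -0.36 for endothelium. Lymphocyte markers summed to at most 0.670 FPKM in any library, and Cd3e and Cd3g were at 0 in all. The part of these cells in the receptor values was not tested.

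The genes whose log2 levels followed Hcar2 most closely over the 30 libraries were Pdcd1 (r = 0.903), Amer2 (0.895), Sp100 (0.865), Cacna1s (0.852) and Lyz2 (0.852). Pdcd1 encodes the inhibitory receptor PD-1 and Lyz2 a lysozyme of myeloid cells. For Gpr153 they were Ly9 (0.840), Ildr2 (0.827), Tmem154 (0.824), Chst1 (0.817) and Cst7 (0.814), the last being cystatin F, a protease inhibitor. These r values include the difference between WT and Cre-positive mice. With the group means removed, the closest to Hcar2 were Zdhhc12 (0.832), Plk3 (0.799), 1700007L15Rik (0.783), Pcgf1 (0.772) and Arl11 (0.763). The lists by level and by deviation thus share no gene for Hcar2.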

How the data were processed

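RNA of sorted microglia from 30 mice was amplified with the SMARTer v4 kit, made into Nextera XT libraries and sequenced by the authors. Alignment to mm10 was with OSA4 and an Ensembl gene model, and abundance came from RSEM. The authors removed 6 libraries by quality, and deposited FPKM without a logarithm. In the table, 6 per-sample columns match no listed sample and were not used. The FPKM hold no read totals, so counting error is not given. Relative depth came from the steps between values of 13092 low genes.

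Libraries were scaled by median of ratios (genes with mean FPKM of 1 or more), 0.1 was added before log2, and 16897 genes whose mean FPKM reached 0.1 were compared with limma 3.58.1 in R 4.3.3 (all 6 groups, trended empirical Bayes). Calls needed a Benjamini-Hochberg adjusted p below 0.05 over all these genes and a fold change above 1.5. On this scale fold changes of low genes are understated. The samples are separate mice. The step was tested on simulated data. Single libraries are given as deposited. As alternatives, the pseudocount, filter and scaling were changed, and the fits were repeated with array weights, number range as a covariate or late numbers only, the compared groups alone, no fold threshold, and leaving out libraries. The count model of the study needs read counts, which were not used here.

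The receptors and gene lists were chosen with earlier results of these data known. Beside the receptors, genes named are those of the lists that passed against WT, paralogues, overlapping genes, Bin1, Cx3cr1, and the 5 most correlated genes, of which the list for Gpr153 with group means removed is not reported here. Sequences are from RefSeq (GRCm38.p6) and GENCODE M21, which was also used for positions.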

Additional observations from a re-analysis of the deposited data

Results flagged for a closer look

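Over 48 pairs of a receptor and a group, 2 held a library far from the others of its group by Dixon's criterion, and chance marks about 2.4. Gpr153 was at 1.21 FPKM in the female Homo library labelled Homo-F-0193, while the other 4 were at 0.713 to 0.830. Gpr34 was at 2876 FPKM in the male WT library labelled WT-M-0202, while the other 4 were at 1565 to 1733.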

How the results depend on the processing

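The number of receptors not chosen for a difference that passed in male Homo against WT mice was 0, and it became 1 (Gpr34) without scaling, by quantile normalization and with array weights. It ranged from 0 to 1 when each library was left out, the 1 arising without WT-M-0202. The cause was not tested. The other 9 comparisons gave 0 receptors under every alternative run. No paired analysis was possible because each mouse has its own number, which no 2 groups share. The interaction in Homo mice was -0.31 for Gpr84 and -0.10 for Gpr183, and 0.01 and 0.10 with late numbered mice only, neither past the threshold. Counts over all genes moved more: for male Homo against WT mice 306 genes passed, but 10 with late numbers only, 35 with number range as a covariate, 44 in a fit of the compared groups alone, 186 without the filter, 480 with array weights, 477 without the fold threshold and 76 to 819 when a library was left out, the lowest with Homo-M-0093 and the highest with Homo-M-0189 removed. For male Het mice 26 became 4 to 31 under other settings and 12 (without WT-M-0178) to 57 (without WT-M-0258) when a library was left out, for female Homo mice 12 became 10 to 36 and 7 (without Homo-F-0228) to 11, and for female Het mice 22 became 6 to 63 and 9 (without Het-F-0206) to 31. The early against late count of 1253 became 67 to 2459, and 1 (without Het-M-0100) to 2400 (without Het-M-0203) when a library was left out. Calls were higher in male Homo mice for 64.4%, and for 77.0% without scaling, which moved the median of all genes from 0.03 to 0.11. For early against late numbers these were 80.4%, and 96.5% without scaling or 67.4% by quantile normalization, with medians of 0.095, 0.23 and -0.04. Depth in reads is unknown, which limits what can be said of Gpr153 and Sucnr1.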
